A study of Mus musculus with 6 samples.

Results

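The epithelial sodium channel and its control by aldosterone were followed through 10 genes in the kidney cortex of mice with and without the C3a receptor. They were the channel subunits Scnn1a, Scnn1b and Scnn1g, the turnover regulators Sgk1 and Nedd4l, the pump modulator Fxyd4, the corticosteroid receptors Nr3c2 and Nr3c1, the protecting enzyme Hsd11b2 and the steroid-induced gene Tsc22d3. Every transcript probe whose gene name in the array files equalled one of these symbols was taken, whatever its value. This gave 20 probes for the 10 genes, out of 56605 probes in all. All 10 genes were among the 20489 that could be tested, and 16 of the 20 probes passed the filter on dim probes.

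RNA came from renal cortex of male C57BL/6 mice, with 3 wild-type (WT) control samples and 3 control samples lacking the receptor (C3aR-/-), each on 1 single-colour Agilent array. Both groups belonged to the control arm, which was 8 weeks old at the start, was kept on a chow with 10% of calories from fat, was injected with vehicle after 4 weeks, and was killed 20 weeks after the time of induction. The labels give both genotypes the same strain, and the sources used here do not say how the receptor gene was deleted. Whether the 3 samples of a group came from separate animals is not stated, and p-values then reflect only how far these samples spread, which may be technical.

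The epithelial sodium channel sits in the apical membrane of principal and connecting tubule cells, where it takes sodium from the tubular fluid. Aldosterone enters these cells and activates the mineralocorticoid receptor, which raises transcription of the channel's alpha subunit and of the kinase SGK1. SGK1 phosphorylates the ubiquitin ligase NEDD4-2, which then binds less to the PY motifs in the channel tails and removes fewer channels from the surface. Cortisol and corticosterone also bind the mineralocorticoid receptor, and the enzyme 11-beta-hydroxysteroid dehydrogenase type 2 keeps them from it by oxidising them.

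Levels are log2 signals relative to the 75th percentile of the array, given for replicates 1 to 3, and a change is C3aR-/- minus WT on that scale. The level of a probe depends on its own sequence, so no probe's level was set against another's. Of the 59305 transcript spots on an array, 56.5% to 59.3% were well above background and 0 were saturated. C3aR-/- replicate 1 carried 145 spots marked as non-uniform, against 2 to 8 on each other array. All 6 proximal tubule markers and all 4 podocyte markers could be tested, so the tissue held the genes that define cortex. The WT arrays lay on 1 slide and the C3aR-/- arrays on another, and the file headers give the 2 slides different scan dates. Slide, scan and genotype therefore cannot be told apart in any result below. The probe of the deleted gene, C3ar1 (mm9 chr6:122798222-122798281), was well above background on 1 of 6 arrays, a WT one, and so gives no check of the labels.

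Of the 10 genes, 1 passed an adjusted p of 0.05 in C3aR-/- cortex, Scnn1g, which rose, and 0 fell. Over all genes tested 14.3% passed, 7.06% higher and 7.27% lower, so 1 of 10 is close to that background. With arrays scaled to their medians, 63.4% of the passing genes were higher, against 49.3% here. At an unadjusted p under 0.05 there were 4 of the 10 genes, against 33.4% of all genes. The values of the genotypes did not overlap in 6 of the 10, 4 higher and 2 lower, where 41.3% of all genes did not overlap. Of the 4, Scnn1b passed the filter on dim probes only through the C3aR-/- arrays. The changes had no common direction, with 5 positive and 5 negative. Their median was 0.03, beside 0.02 over all genes, and the median absolute change was 0.19, beside 0.18. Of the 16 probes tested singly with limma, 0 passed and 6 had an unadjusted p under 0.05, where 11.7% and 31.9% of all tested probes did. The genotypes did not overlap at 8 of the 16, against 39.6% of all tested probes.

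**Figure D1:**
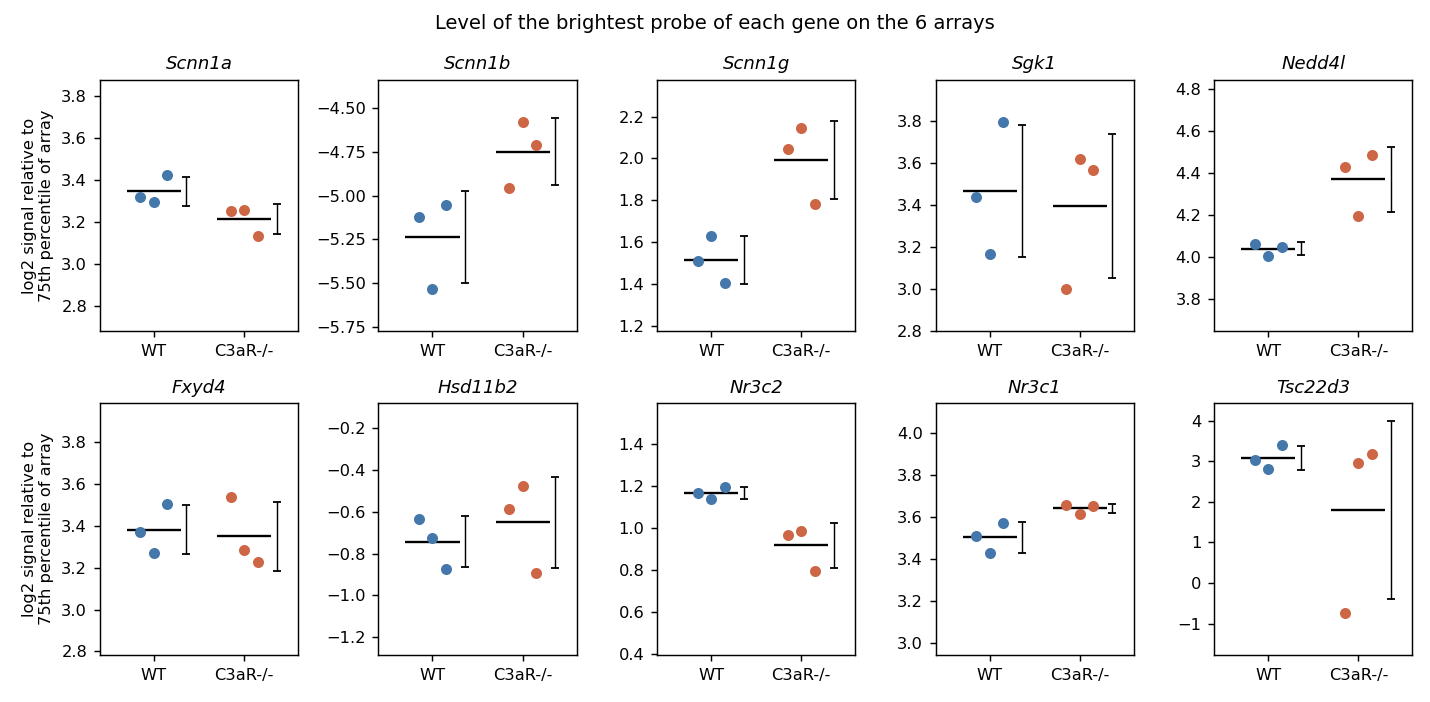
Level of the brightest probe of each of the 10 genes (vertical axis, log2 signal relative to the 75th percentile of the array) on the 3 WT (blue) and 3 C3aR-/- (orange) arrays, with replicates 1 to 3 from left to right. Black lines are means and bars beside them SD over 3 arrays; the panels for Tsc22d3, Sgk1, Scnn1b and the others have axes of their own. Scnn1g lies between 1.40 and 1.63 in WT and between 1.78 and 2.15 in C3aR-/- cortex, while 1 low C3aR-/- array sets the mean of Tsc22d3.

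The 3 channel subunits did not move together. Scnn1g, which encodes the gamma subunit that is cut by proteases to open the channel, was at 1.51, 1.63 and 1.40 in WT cortex and at 2.04, 2.15 and 1.78 in C3aR-/- cortex (single probe A_51_P245558, mm9 chr7:128911434-128911493). All 3 C3aR-/- arrays were above all 3 WT arrays. The means were 1.52 ± 0.11 and 1.99 ± 0.19 (SD, n = 3 each), a 1.39-fold rise (log2 change 0.48, SE 0.11, 95% interval 0.20 to 0.76, limma adjusted p = 0.0460). The call was a narrow one. With adjustment over all probes in place of all genes, the same probe did not pass (limma adjusted p = 0.0511). Leaving out any 1 of the 6 arrays ended the call, with changes of 0.40 to 0.58 and limma adjusted p-values of 0.0518 to 0.115.

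Scnn1b, the beta subunit gene next to Scnn1g on the chromosome, had 1 probe near the limit of detection (A_55_P2934457, mm9 chr7:129042869-129042928). It read -5.12, -5.54 and -5.05 in WT and -4.96, -4.58 and -4.71 in C3aR-/- cortex. The C3aR-/- values were all the higher ones, but only 1 of 3 WT arrays read the probe well above background, against 3 of 3 C3aR-/- arrays. The change of 0.49 (SE 0.16, 95% interval 0.09 to 0.88) did not pass (limma adjusted p = 0.0966). Under normexp background correction it was 0.02 (limma adjusted p = 0.881), so the size of the change depends on the background correction. The probe passed the filter on dim probes only through the C3aR-/- arrays, where it was higher.

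Scnn1a encodes the alpha subunit, the one that aldosterone induces in the kidney. Its bright probe (A_51_P213691, mm9 chr6:125294843-125294902) read 3.32, 3.30 and 3.43 in WT and 3.25, 3.26 and 3.13 in C3aR-/- cortex. Its dimmer probe (A_66_P119584, mm9 chr6:125293939-125293998) read -0.32, -0.39 and -0.44 in WT and -0.49, -0.95 and -1.08 in C3aR-/- cortex. Both probes were lower on every C3aR-/- array than on any WT array, the direction opposite to Scnn1g. Neither passed. The change was -0.13 at the bright probe (SE 0.07, 95% interval -0.30 to 0.04, limma adjusted p = 0.230) and -0.46 at the dimmer one (SE 0.16, limma adjusted p = 0.108 over probes). Scnn1a lies on the same chromosome as the deleted C3ar1, with its bright probe 2.50 Mb from the C3ar1 probe. Whether this position bears on the Scnn1a values was not tested.

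**Figure D2:**
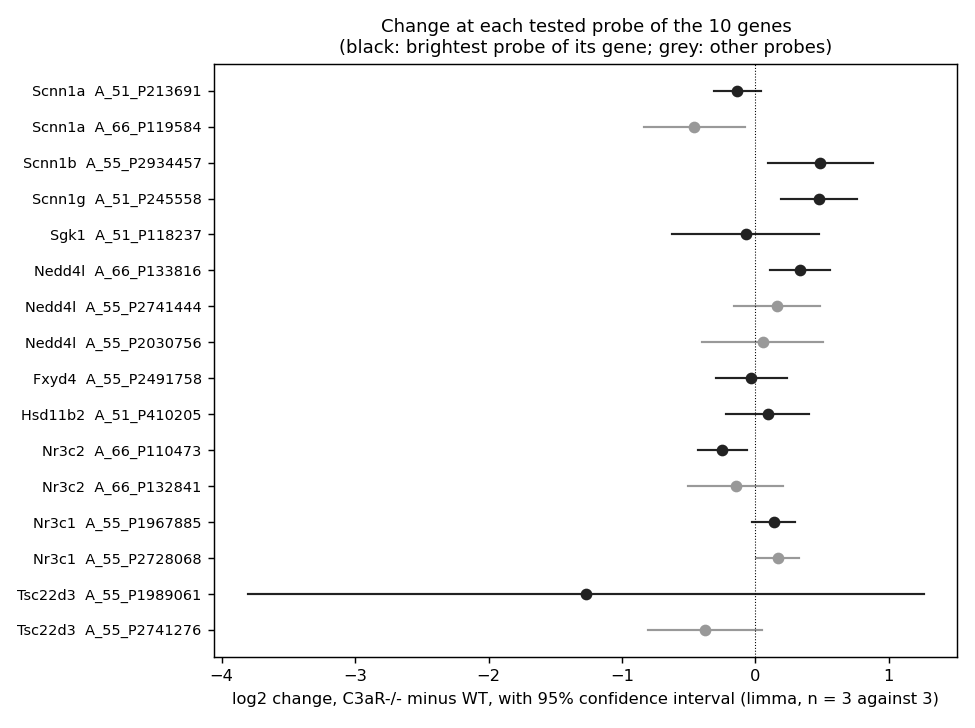
Log2 change (horizontal axis, C3aR-/- minus WT) with its 95% confidence interval from limma at each of the 16 tested probes, n = 3 arrays a genotype. Black points are the brightest probe of a gene and grey points its other probes. The interval of Scnn1g lies above 0 (fitted over probes, 0.19 to 0.76), both Scnn1a probes lie on the negative side, and the first Tsc22d3 probe has the widest interval, -3.80 to 1.26.

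Principal cells are the main site of the channel, and their markers were read in the same arrays. Of 8 markers 7 were tested, 3 rose, 0 fell and 4 did not pass. Of the 7 changes 5 were positive and 2 negative. The negative ones were Rhcg at -0.08 (SE 0.07) and Aqp4 at -0.74 (SE 0.73), with other Aqp4 probes at -0.13 and 0.02. The water channel gene Aqp2 rose by 0.88 (SE 0.07, limma adjusted p = 0.00374), from 1.72, 1.66 and 1.83 in WT to 2.59, 2.68 and 2.59 in C3aR-/- cortex. The keratin gene Krt18 rose by 0.50 (SE 0.07, limma adjusted p = 0.0115), and Aqp3, the basolateral water channel gene, by 0.40 (SE 0.09, limma adjusted p = 0.0399). Summed over the list, the level was 5.75 to 5.77 in WT and 5.90 to 6.07 in C3aR-/- cortex. No tested marker was at background on all arrays, and Elf5, which was not tested, was well above background on 3 of 6. The mean of Elf5 was -4.61 in WT and lower, at -5.56, in C3aR-/- cortex. Connecting tubule markers had 0 of 5 past the threshold and a summed level of 8.25 to 8.36 in WT and 8.40 to 8.54 in C3aR-/- cortex. A higher sum was not particular to these cells. Thick ascending limb markers summed to 8.12 to 8.15 in WT and 8.23 to 8.31 in C3aR-/- cortex. Proximal tubule markers summed to 9.38 to 9.48 in WT and 9.57 to 9.63 in C3aR-/- cortex. Sums of distal convoluted tubule, intercalated cell, podocyte and inner medulla markers were also higher on all C3aR-/- arrays. Endothelial sums were lower there, and leukocyte sums overlapped. These sums weight each probe by its signal, so the brightest probes lead them. The part of these markers in the Scnn1g result was not tested. In bulk cortex, more cells of a type and more RNA per cell cannot be told apart.

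Of the genes that set how long the channel stays at the surface, Sgk1 showed a wide spread within each genotype. Sgk1 is the kinase gene that corticosteroids induce early. Its main probe (A_51_P118237, mm9 chr10:21719390-21719449) read 3.44, 3.17 and 3.80 in WT and 3.0, 3.62 and 3.57 in C3aR-/- cortex. The genotypes overlapped, and the highest and the lowest value were WT replicate 3 and C3aR-/- replicate 1. The change was -0.07 (SE 0.23, 95% interval -0.63 to 0.48, limma adjusted p = 0.845), which leaves changes of either sign within the interval. A second Sgk1 probe, for another transcript (A_52_P352246, mm9 chr10:21618550-21618609), was well above background on WT replicate 1 only, with a processed signal of 88.3 against 3.90 to 6.58 on the other 5 arrays, and was not tested.

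RefSeq promoters of 6 of the 10 genes were searched for the sequence that glucocorticoid and mineralocorticoid receptors bind as a pair. Sgk1 and Tsc22d3 are classical targets of both receptors. Each promoter had 300 bases, from 250 bases before to 50 bases after a start site in assembly GRCm38.p6. The searched set had 13 promoters, namely 6 of Sgk1, 3 of Tsc22d3 and 1 each of Scnn1b, Scnn1g, Fxyd4 and Nr3c2. No promoter of Scnn1a, Hsd11b2, Nedd4l or Nr3c1 was searched, so the counts say nothing about these genes. The full palindrome, AGAACA, any 3 bases and then TGTTCT, read on both strands, was in 1 of the 13, an Sgk1 promoter, and in 3 of all 32851 promoters (0.00913%). Its less strict form, GNACA, any 3 bases and then TGTNC, which overlaps it, was in the same Sgk1 promoter and in 156 of all promoters (0.475%). The single site AGAACA, on either strand and contained in the palindrome, was in 4 of the 13, 3 of Sgk1 and 1 of Tsc22d3, and in 19% of all. A match describes these letters and was not tied to any value of the arrays. The Sgk1 promoter with the palindrome (GRCm38.p6, plus strand, chr10:21993640-21993939) is shown because it alone of the 13 held the complete site, which begins at position -189 from the start site. Capitals mark matches to AGAACA on either strand and the palindrome.
Sgk1 promoter: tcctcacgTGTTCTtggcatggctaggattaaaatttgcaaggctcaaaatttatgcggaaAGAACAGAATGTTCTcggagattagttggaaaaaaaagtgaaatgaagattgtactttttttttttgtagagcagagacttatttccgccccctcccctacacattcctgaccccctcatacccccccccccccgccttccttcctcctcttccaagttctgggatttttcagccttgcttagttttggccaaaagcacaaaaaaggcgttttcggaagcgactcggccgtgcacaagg

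Nedd4l encodes NEDD4-2, the ligase that marks the channel for removal. Its brightest probe (A_66_P133816, mm9 chr18:65372771-65372830) read 4.06, 4.0 and 4.05 in WT and 4.43, 4.19 and 4.49 in C3aR-/- cortex. The C3aR-/- arrays were all higher, and the WT arrays differed by less than 0.1 among themselves. The change was 0.33, or 1.26-fold (SE 0.09, 95% interval 0.11 to 0.55), and missed the threshold (limma adjusted p = 0.0602). It passed in 4 of 20 alternative settings. Other Nedd4l probes showed smaller changes whose genotypes overlapped, 0.16 (SE 0.13, limma adjusted p = 0.440 over probes) at A_55_P2741444 and 0.05 (SE 0.19, limma adjusted p = 0.862 over probes) at A_55_P2030756. The fourth, A_55_P2730451, was well above background on 1 WT and 2 C3aR-/- arrays and was not tested.

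Fxyd4 encodes a small membrane protein of the collecting duct, also called CHIF, that raises the affinity of the basolateral sodium pump for sodium. Its probe (A_55_P2491758, mm9 chr6:117883577-117883636) read 3.37, 3.27 and 3.50 in WT and 3.54, 3.28 and 3.23 in C3aR-/- cortex. The genotypes overlapped, with a change of -0.03 (SE 0.11, 95% interval -0.30 to 0.23, limma adjusted p = 0.862) that was 0.02 with arrays scaled to their medians. Fxyd4 lies on the other side of C3ar1, 4.91 Mb from its probe.

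Hsd11b2 encodes the dehydrogenase that guards the mineralocorticoid receptor. It was read by 1 probe, A_51_P410205, whose mm9 coordinates, chr8:108046785-108047002, span 218 bases for 60 letters. The probe thus skips 158 bases of the genome, as a probe across a splice junction would, and its letters are shown because the whole reading of this gene rests on them.
Hsd11b2 probe A_51_P410205: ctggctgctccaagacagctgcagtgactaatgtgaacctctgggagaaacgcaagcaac

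Hsd11b2 read -0.63, -0.72 and -0.87 in WT and -0.59, -0.48 and -0.89 in C3aR-/- cortex. The genotypes overlapped, with C3aR-/- replicate 3 the lowest of the 6 and C3aR-/- replicate 2 the highest. The change was 0.09 (SE 0.13, 95% interval -0.22 to 0.40, limma adjusted p = 0.643).

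The 2 receptors leaned in opposite directions and neither passed. Nr3c2, the mineralocorticoid receptor gene, read 1.17, 1.14 and 1.19 in WT and 0.97, 0.99 and 0.79 in C3aR-/- cortex at its brightest probe (A_66_P110473, mm9 chr8:79768704-79768763). All C3aR-/- arrays were lower. The change was -0.25, or 1.19-fold lower (SE 0.07, 95% interval -0.43 to -0.07, limma adjusted p = 0.0721). A dimmer Nr3c2 probe (A_66_P132841, mm9 chr8:79766784-79766843) had a change of -0.15 (SE 0.15, limma adjusted p = 0.519 over probes) with overlapping genotypes, and A_51_P377914 was not well above background on any array.

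Nr3c1, the glucocorticoid receptor gene, read 3.51, 3.43 and 3.57 in WT and 3.66, 3.62 and 3.65 in C3aR-/- cortex (A_55_P1967885, mm9 chr18:39571641-39571700). A second Nr3c1 probe at another place in the transcript (A_55_P2728068, mm9 chr18:39588272-39588331) read 3.13, 3.01 and 3.07 in WT and 3.29, 3.18 and 3.24 in C3aR-/- cortex. Both probes were higher on all 3 C3aR-/- arrays than on any WT array, by similar small amounts. The changes were 0.14 (SE 0.06, 95% interval -0.01 to 0.29, limma adjusted p = 0.180) and 0.17 (SE 0.07, limma adjusted p = 0.152 over probes), so neither passed. Nr3c1, like Scnn1a, thus had 2 probes that separated the genotypes in the same direction without reaching the threshold.

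Tsc22d3 encodes GILZ, a leucine zipper protein that corticosteroids induce and that restrains channel removal. Its brightest probe (A_55_P1989061, mm9 chrX:137074094-137074153) read 3.02, 2.80 and 3.39 in WT and -0.74, 2.96 and 3.18 in C3aR-/- cortex. A single array, C3aR-/- replicate 1, stood far below the other 5, which overlapped. The change of -1.27 had the largest error of the 10 genes (SE 1.05, 95% interval -3.83 to 1.29, limma adjusted p = 0.434).

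The low Tsc22d3 spot was uneven. The SD of its pixels was 46.0% of the spot mean on C3aR-/- replicate 1, against 6.16% to 8.52% for the same spot on the other 5 arrays. No other spot of a tested probe of the 10 genes was above 29.0%. The processed signal was 427 there and 4609 to 7193 elsewhere. Within 10 rows and columns of this spot, 9 spots were marked as non-uniform on C3aR-/- replicate 1 and 0 on every other array. Even spots on that array had such neighbours too, 10 near Scnn1g (pixel SD 11.1%) and 12 near Fxyd4 (15.2%). The count of neighbours therefore does not set the Tsc22d3 spot apart. The Tsc22d3 spot itself carried no outlier mark, and its measured neighbours deviated from the other arrays of the genotype by a median of 0.02. On C3aR-/- replicate 1, 192 of 31587 spots (0.608%) were at least as uneven, against 2 to 6 on each other array.

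Counting every spot with a pixel SD of 40% or more of its mean as missing on that array, Tsc22d3 was fitted on 3 WT and 2 C3aR-/- arrays and its change was -0.00 (SE 0.19, limma adjusted p = 0.998). A second Tsc22d3 probe (A_55_P2741276, mm9 chrX:137074801-137074860), with even spots of 5.51% to 8.20%, read 2.15, 2.07 and 2.36 in WT and 1.5, 1.79 and 2.14 in C3aR-/- cortex. C3aR-/- replicate 1 was again the lowest, by far less, and C3aR-/- replicate 3 lay inside the WT range. The change there was -0.38 (SE 0.18, limma adjusted p = 0.195 over probes). The size of the Tsc22d3 change thus differs between the probes, and neither passed. The last Tsc22d3 probe, A_55_P2719913, was not well above background on any array. The Tsc22d3 promoter (GRCm38.p6, minus strand, chrX:140600473-140600772) that held a single AGAACA match, at position -185 from the start site, is shown beside the Sgk1 promoter for comparison, with the match in capitals as TGTTCT.
Tsc22d3 promoter: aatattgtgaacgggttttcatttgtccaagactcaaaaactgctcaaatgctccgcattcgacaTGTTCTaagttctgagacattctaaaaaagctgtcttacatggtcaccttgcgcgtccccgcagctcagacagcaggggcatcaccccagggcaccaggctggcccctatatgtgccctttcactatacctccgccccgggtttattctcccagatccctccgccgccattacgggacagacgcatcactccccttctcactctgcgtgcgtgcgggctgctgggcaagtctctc

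**Figure D3:**
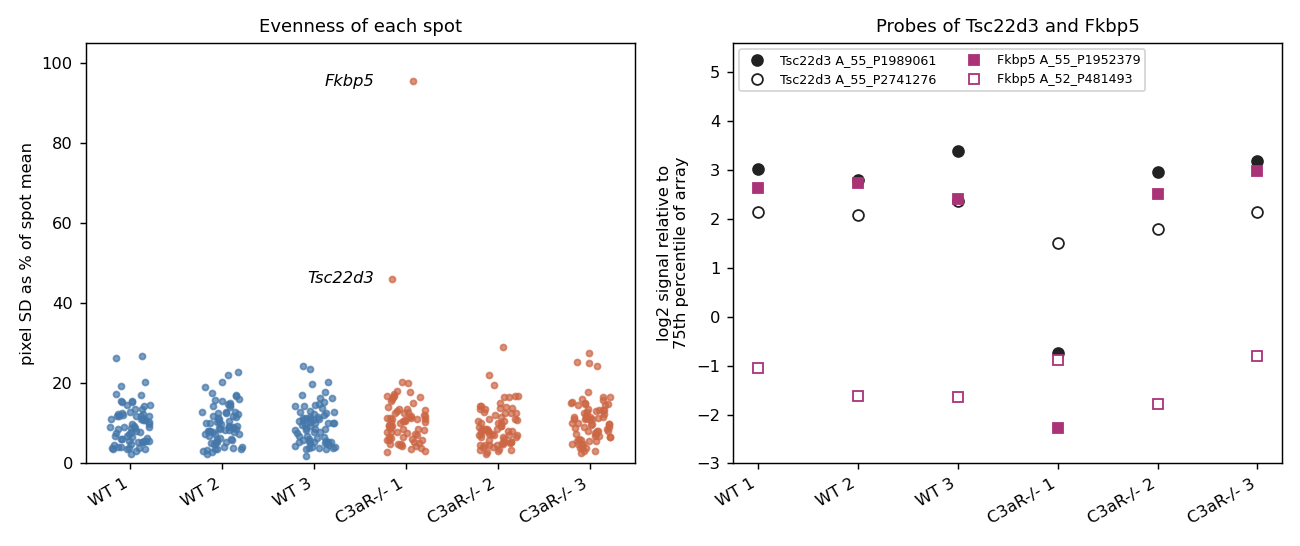
Left, SD of the pixels of each spot as a percentage of the spot mean (vertical axis) for the tested probes of the 10 genes and the measured probes of the other pathway genes, on each of the 6 arrays (WT blue, C3aR-/- orange). Right, level (log2 signal relative to the 75th percentile of the array) of 2 probes each of Tsc22d3 (circles) and Fkbp5 (squares), with filled marks for the brighter probe. The spots of Tsc22d3 (46.0%) and Fkbp5 (95.3%) on C3aR-/- replicate 1 stand above all others, and both filled marks are low on that array only.

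The same pattern was seen at Fkbp5, a receptor co-chaperone gene that is among the genes most readily induced by glucocorticoids. Its brightest probe (A_55_P1952379) read 2.63, 2.73 and 2.41 in WT and -2.27, 2.50 and 2.99 in C3aR-/- cortex. That spot had a pixel SD of 95.3% on C3aR-/- replicate 1, against 8.55% to 11.3% on the others, with 4 non-uniform spots near it against 0. The change was -1.52 (SE 1.37, limma adjusted p = 0.475), and 0.15 (SE 0.18, limma adjusted p = 0.590) with the uneven spot left out. The other measured Fkbp5 probe had a change of 0.27 (SE 0.30). Its spot on C3aR-/- replicate 1 was even (10.6%), although 10 non-uniform spots lay near it. Fkbp5 is named here because of its spot, after its values were seen.

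The wider pathway was read from 6 lists with 55 genes, of which 54 were tested. At their brightest probes 3 rose, 0 fell and 51 did not pass, or 5.56% passing against 14.3% of all genes. Klhl3, 1 of the 3, passed the filter on dim probes only through the C3aR-/- arrays, where it was higher, and 2 genes passed when a probe had to be above background on each of the 6 arrays. Of the 54 changes 35 were positive and 19 negative, with a median of 0.05 beside 0.02 over all genes.

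Of 7 tested genes of receptor chaperones and glucocorticoid metabolism, 2 rose, 0 fell and 5 did not pass, with a median of 0.12. H6pd, which supplies NADPH for the regeneration of active glucocorticoid, was at 3.89, 3.92 and 3.88 in WT and at 4.38, 4.31 and 4.43 in C3aR-/- cortex. It rose 1.39-fold (log2 change 0.48, SE 0.06, limma adjusted p = 0.0103), with tight values in each genotype. Hsd11b1, the reductase that uses this NADPH, read 4.43, 4.66 and 4.21 in WT and 3.61, 4.02 and 4.15 in C3aR-/- cortex. It was lower on every C3aR-/- array without passing (change -0.51, SE 0.18, limma adjusted p = 0.107). Fkbp4, a co-chaperone that helps steroid receptors reach the nucleus, rose by 0.33 at its brightest probe (SE 0.07, limma adjusted p = 0.0289). Its other probes were at 0.20 and -0.18, so the direction of Fkbp4 depends on the probe.

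Of 7 genes of the WNK-SPAK pathway and distal sodium chloride transport, 1 rose (Klhl3, with the limit just given). At their brightest probes 0 fell and 6 did not pass, with a median of 0.05. Other probes of 2 of these genes fell. A Wnk1 probe was at -0.74 (SE 0.07, limma adjusted p = 0.00763 over probes). The rest of Wnk1 was at -0.20, 0.21 and 0.21, and its brightest probe at 0.05. A Stk39 probe was at -0.34 (SE 0.08, limma adjusted p = 0.0424 over probes), and its brightest at -0.12. None of the 3 WT arrays read Klhl3, the adaptor that brings WNK kinases to a ubiquitin ligase, well above background. Its fitted log2 change was 1.01 (SE 0.12, limma adjusted p = 0.00872), where the SE and p-value rest on WT values that were not well above background. Each WT array was also entered with the probe's value or with the lowest level well above background there, whichever was higher. The C3aR-/- mean was then 1.68-fold higher, a value that depends on this replacement and is given without an error. Slc12a3, the thiazide-sensitive cotransporter gene upstream of the channel, had a change of 0.23 (SE 0.07, limma adjusted p = 0.0828).

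In the other 4 lists no gene passed at its brightest probe, and 7 of their 40 tested genes had an unadjusted limma p under 0.05, where 33.4% of all genes did. Other probes of some of these genes passed in the fit over probes, in both directions. The 8 channel-cleaving proteases and their inhibitors had a median change of 0.08 at their brightest probes. Spint2, a protease inhibitor gene at 0.00214 by its brightest probe, had a second probe that fell by 1.90 (SE 0.11, limma adjusted p = 0.00248 over probes) and another at 0.36. Other probes of Serpine2 and Furin were at -0.32 and -0.01, so these 3 genes had no single direction. The serine protease gene Tmprss4 had the smallest p of them, at 0.57 (SE 0.20, limma adjusted p = 0.117), and Prss8, which encodes the channel-activating protease prostasin, had a change of 0.000537 (SE 0.07). Of 14 tested kinases and ubiquitin factors 9 were positive and 5 negative, with a median of 0.03. Mapkap1, a subunit of the mTORC2 complex that activates SGK1, was at -0.30 at its brightest probe (SE 0.08, limma adjusted p = 0.0636) and at -0.02 and 0.22 at its other probes. Of 12 other corticosteroid-induced genes 5 were positive and 7 negative, with a median of -0.00. Sult1d1, a sulfotransferase gene, had a change of 0.42 at its brightest probe (SE 0.12, limma adjusted p = 0.0695). The other Sult1d1 probe, at 0.94, passed (SE 0.16, limma adjusted p = 0.0238 over probes). Of 6 genes of the basolateral pump and potassium exit 3 were positive and 3 negative, with a median of 0.08. The potassium channel gene Kcnj16 was at 0.22 (SE 0.08, limma adjusted p = 0.123).

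**Figure D4:**
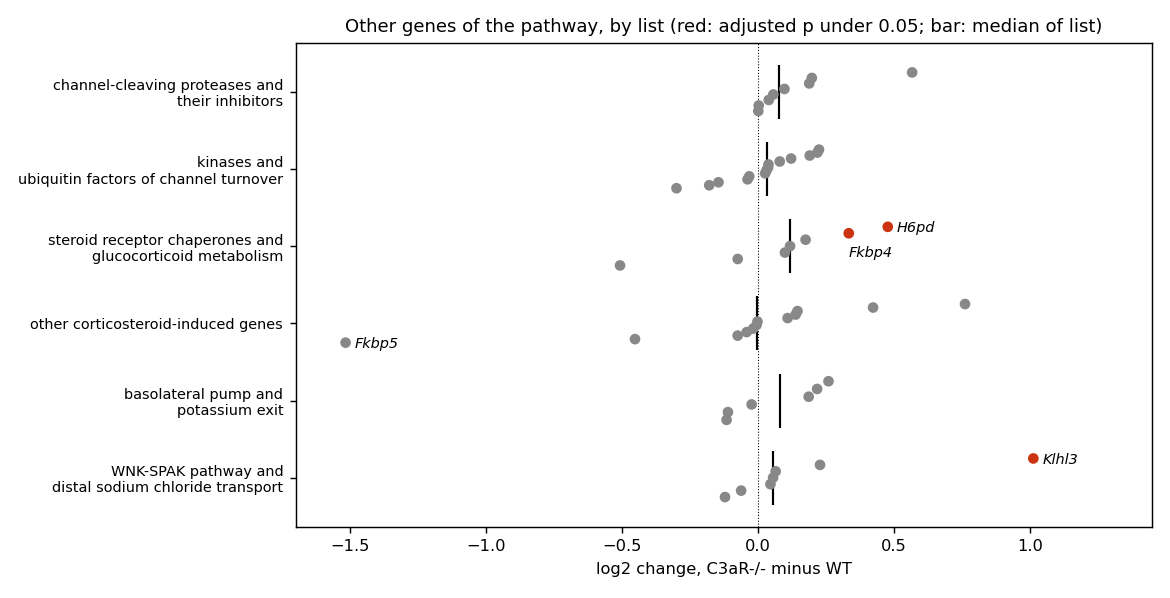
Log2 change (horizontal axis, C3aR-/- minus WT) of the 54 tested genes of the wider pathway, 1 point a gene, grouped by list, with a black bar at the median of each list. Red points passed an adjusted p of 0.05 in limma (H6pd, Fkbp4 and Klhl3), and Fkbp5, at -1.52, is the gene with the uneven spot. The medians of the 6 lists lie between -0.00 and 0.12.

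C3aR-/- replicate 1 also held the lowest of 6 values at Sgk1 (3.0) and at the even Tsc22d3 probe (1.5), and at the corticosteroid-induced genes Per1 (0.88) and Usp2 (2.22). Other corticosteroid-induced genes went the other way there. Sult1d1 had its highest of 6 values on that array (5.82), and Zbtb16 (0.01) was above all WT arrays. Over the 64 tested genes of the pathway, C3aR-/- replicate 1 was the lowest array for 16, against 2 to 13 for the other arrays. It was the highest for 11, against 3 to 23. Per1, Usp2, Sult1d1 and Zbtb16 were picked out after their values were seen.

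Cyp11b2, the aldosterone synthase gene, and Cyp11b1, Cyp11a1 and Mc2r of the adrenal cortex were not well above background on any array, so 4 of 6 adrenal markers gave no reading. The other two, Star and Cyp21a1, did not pass. Plasma aldosterone and corticosterone were not analysed here.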

How the data were processed

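Cortex RNA (0.2 µg a sample, per the labels' protocols) was labelled with Cy3 and hybridised. Per the file headers, images were quantified with Agilent Feature Extraction 10.7.1.1, and the deposited scanner files hold for each spot a background-subtracted intensity, a mean intensity, a local background and flags. A log2 table deposited by the authors, with columns that share 1 set of sorted values (to within 0.000903) and a median of 5.38, correlated at 0.995 to 0.996 with the log2 intensity of the matching array. How it was otherwise centred or filtered is unknown here, and it served as an alternative.

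From the log2 intensity each array's 75th percentile (662 to 827) was subtracted, without control and outlier spots and with spots of a probe averaged. A probe was kept if the 3 arrays of a genotype all read it well above background (30930 probes), and the brightest stood for its gene. The test was that of limma 3.58.1 (lmFit, eBayes, two-sided; R 4.3.3), with p-values adjusted by the Benjamini-Hochberg method over all genes, or over all kept probes where stated, at a threshold of 0.05. The fit was tested on simulated data. The number of arrays limits the precision. An exact permutation test of 3 against 3 could not go below p = 0.1 and was not used.

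All 10 members were named with every probe. Of each pathway list the text names the genes past the threshold, or otherwise that with the smallest p, and others only as stated. The members, lists and rules were chosen with earlier results of these data known. The labels do not say that replicate numbers pair the samples. Deviations of samples with the same number correlated at 0.04, -0.03 and -0.07, which cannot exclude a pairing. Probe coordinates (mm9) came from the array files. Symbols of genes other than the members came from a RefSeq table of GRCm38.p6, used for names, which matched 32994 of 56605 probes. A planned search of the proteins for PY motifs was not run.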

Additional observations from a re-analysis of the deposited data

How the results depend on the processing

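With 2935 genes and 3612 probes passing in the analysis described, 936 genes and 927 probes passed without a filter on dim probes. With the replicate block 657 and 594 passed, although the labels do not say that the numbers pair the samples. Leaving out 1 array in turn gave 665 to 1667 genes, 600 to 1891 probes, and 0 to 1 member genes and 0 to 1 member probes. Of the 10 member genes, 1 passed in the analysis described, 0 with the mean of a gene's probes, 0 without the filter, 0 with the replicate block, 2 with arrayWeights, 2 with median scaling and 3 with eBayes with trend. Of the 16 member probes, 0 passed in the analysis described, 1 with arrayWeights, normexp, quantile normalisation, only probes above background on all arrays, floored values or, in an alternative chosen after seeing the data, without uneven spots, 2 with median scaling and 3 with eBayes with trend. Of the pathway genes, 3 passed in the analysis described, 1 with the replicate block, 5 with normexp, median scaling or the mean of a gene's probes, and 7 with eBayes with trend. Scnn1g kept its direction in all 20 alternatives and its call in 10 (limma adjusted p 0.0228 to 0.115), losing it also with the replicate block (0.0567), the mean of probes (0.0512), arrayWeights (0.0558) and no filter (0.0972). Nedd4l passed with median scaling (0.0435), eBayes with trend (0.0281), arrayWeights (0.0465) and without C3aR-/- replicate 2 (0.0418), and Nr3c2 with eBayes with trend (0.0456) and arrayWeights (0.0460). Changes that did not pass turned sign in these cases: Sgk1 with arrayWeights (0.055, at its probe 0.059) and within -0.22 to 0.13 on leaving out 1 array, Fxyd4 with median scaling (0.020) and within -0.13 to 0.030, Hsd11b2 with arrayWeights (-0.0083, at its probe -0.0097), and the Nedd4l probe A_55_P2030756 with arrayWeights (-0.052) and within -0.13 to 0.17. The cause of these shifts was not tested. Scnn1b was dim, so its size depends on the background correction, and 4 of the 20 probes were too dim for a test.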

Other observations

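Markers of other nephron segments did not all move with the principal cell genes. In the thick ascending limb Cldn16, a tight junction gene, rose by 0.38 (SE 0.10, limma adjusted p = 0.0499) and the prostaglandin receptor gene Ptger3 fell by 0.65 (SE 0.12, limma adjusted p = 0.0252), with 5 markers tested. Of these 5 changes 4 were positive and 1 negative. Pvalb, a marker of the early distal convoluted tubule, fell by 0.47 (SE 0.09, limma adjusted p = 0.0278), 1 of 5 markers of that segment to pass. The other 4 had positive changes, and the median of the list was 0.19. Slc4a1, the anion exchanger gene of type A intercalated cells, which share the collecting duct with principal cells, fell by 0.51 (SE 0.10, limma adjusted p = 0.0286), 1 of 6 markers of that cell type to pass. Of the 6 changes 2 were positive, Slc26a4 at 0.18 and Atp6v0d2 at 0.22, and 4 negative.

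Outside the distal nephron, the proximal tubule gene Slc5a2 rose by 0.34 (SE 0.07, limma adjusted p = 0.0335), the podocyte gene Wt1 rose by 0.43 at its brightest probe with its other probe at -0.02, Pecam1 rose by 0.51 and Kdr fell by 0.53 among 5 endothelial genes, and Cd68 fell by 0.58 among 5 tested leukocyte genes, where Cd79a was not well above background on any array.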
